A study of Mus musculus with 9 samples.

Results

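The epidermal growth factor (EGF) family ligands and their ERBB receptors were followed through 9 RNA-seq libraries of mouse uterus. The set holds 10 genes, chosen by name: the ligand genes Areg, Hbegf, Ereg, Btc, Egf and Tgfa, the receptor genes Egfr, Erbb2 and Erbb3, and Errfi1, which encodes an inhibitor of the receptors. They are 10 of 35934 annotated genes with values, and 7 of them were among the 12039 genes tested. The arrested group (3 libraries) came from uteri whose horns received medium conditioned by developmentally arrested human embryos, pooled from 18 embryos. The competent group (3 libraries) received medium of competent human embryos, pooled from 9, and the control group (3 libraries) received embryo culture medium that had held no embryo. All animals were immature C57BL/6 females, primed with a single dose of 1 mg progesterone and with 10 mg/kg of estradiol per day over 3 days, and given 50 µl of medium. The labels give their age as 25 days and the series' design text also gives 21 days. Nothing in the labels states whether replicate libraries are of different mice or different medium pools, so each p-value measures the spread between these libraries, which may be partly technical. How long after injection the uteri were taken was not stated in the labels. The study asked how the uterus answers medium from embryos that can or cannot develop.

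EGF family ligands are made as membrane-anchored precursors, and ADAM proteases cut them free. Amphiregulin, EGF and transforming growth factor alpha bind EGFR, while heparin-binding EGF-like growth factor, betacellulin and epiregulin also bind ERBB4. ERBB2 has no known ligand of its own and is the favoured partner of the other receptors, and ERBB3 binds neuregulins but has little kinase activity. In the mouse, Hbegf is turned on in the luminal epithelium next to the blastocyst shortly before attachment, Areg is induced there by progesterone, and Btc and Ereg follow around the implanting embryo. ERRFI1 (also called MIG-6) binds the EGFR kinase domain, blocks it and sends the receptor for degradation, and in mouse uterus it is a known target of the progesterone receptor.

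Values are FPKM, the fragments of a transcript scaled by its length in kilobases and by the mapped reads of the library, summed over the annotated transcripts of a gene. Since FPKM is scaled by length, levels can be set side by side between genes. Mapped reads estimated from the deposited confidence intervals numbered about 10900000 to 19800000 per library. A principal component analysis set arrested library 3 apart, since its score on the component of most variance (20.6%) was 60.6 and those of the other 8 libraries ran from -21.1 to 10.8. The epithelial and stromal marker lists had signal in every library, though single markers were listed at 0 in some. These were Foxa2 in competent library 2, Pdgfrb in arrested library 3 and competent library 2, and Col3a1 in control library 3. The 10 epithelial markers summed to 2157 to 3136 FPKM in arrested, 2711 to 3078 in competent and 2527 to 3038 in control libraries. The 10 stromal fibroblast markers summed to 1544 to 2954 FPKM in arrested, 1505 to 2191 in competent and 1867 to 2257 in control libraries. Fat and oviduct genes were uneven. The 7 adipocyte markers summed to 1.55, 1302 and 140 FPKM in arrested libraries 1, 2 and 3, to 1.42 to 163 in competent and to 3.81 to 109 in control libraries. Ovgp1, the oviduct glycoprotein gene, was at 40.6 FPKM in arrested library 3 and listed at 0 in the other 8 libraries on annotated transcripts. A 0 in these files can be a failed estimate, and assembled transcripts were not read for Ovgp1. Of the ovarian genes read with it, Cyp19a1 and Fshr were listed at 0 in all 9. Inha was listed at 0 in the arrested libraries, with 0.196, 0.616 and 1.46 FPKM in competent and 1.67, 0 and 0.767 in control libraries. Amh reached at most 0.209 FPKM, in competent library 1.

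The genes of the family spanned a wide range of levels. Over the 9 libraries Erbb2 averaged 34.8 ± 5.67 FPKM, Errfi1 24.1 ± 8.29, Erbb3 23.9 ± 6.82, Hbegf 9.00 ± 2.51, Tgfa 4.44 ± 1.60, Egfr 4.29 ± 1.32, Btc 2.48 ± 0.72 and Egf 0.302 ± 0.088 FPKM (SD over 9 libraries), with Areg and Ereg at 0. Erbb2 exceeded Errfi1 in 9 of 9 libraries, Erbb3 exceeded Hbegf in 9 of 9 and Hbegf exceeded Tgfa in 9 of 9. Neighbours in this order were not all separated: Errfi1 exceeded Erbb3 in 7 libraries and Tgfa exceeded Egfr in 4. The plot of member levels by library shows these values in each group.

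**Figure D1:**
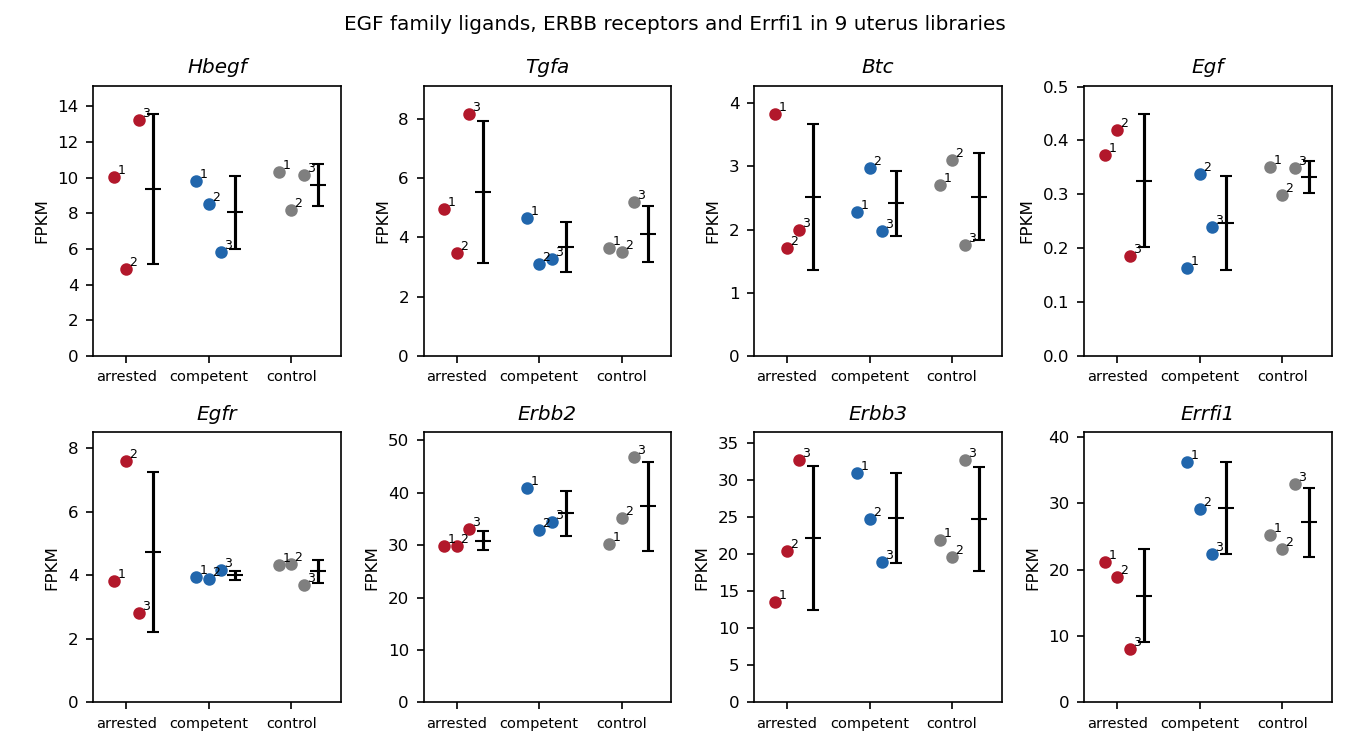
FPKM (vertical axes, each starting at 0) of 8 members in the 9 libraries, as points numbered by library within the arrested, competent and control groups; horizontal marks and bars are group means ± SD (n = 3). Groups overlap in every panel except Errfi1, where the arrested libraries lie at 8.04 to 21.1 FPKM, the competent ones at 22.4 to 36.2 and the control ones at 23.1 to 33.0.

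No member passed the test in any comparison. Tested with limma on log2(FPKM + 1), 0 of 7 members were called at an adjusted p under 0.05 for arrested minus competent, where 0.0914% of the 12039 genes tested were called. For competent minus control, 0 of 7 were called beside 0.0249% of all genes, and for arrested minus control 0 of 7 beside 0.00831%. In the F test over the 3 groups 0 of 7 were called beside 0.0498%. At an unadjusted p under 0.05, limma had 1 of the 7 members, Errfi1, for arrested minus competent, 0 for competent minus control and 1, Errfi1 again, for arrested minus control. The shares of all genes tested were 11.7% for arrested minus competent, 5.52% for competent minus control and 5.44% for arrested minus control. Libraries of 2 groups did not overlap for 1 of 7 members in arrested minus competent (17.2% of all genes), 0 of 7 in competent minus control (15.4%) and 1 of 7 in arrested minus control (9.13%). The comparisons share groups, so they are not independent of each other. The median log2 difference of the 7 members was 0.003 for arrested minus competent, -0.035 for competent minus control and -0.11 for arrested minus control. Over all genes tested it was -0.0092 for arrested minus competent, -0.011 for competent minus control and -0.020 for arrested minus control. The plot of log2 differences gives each member's interval.

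**Figure D2:**
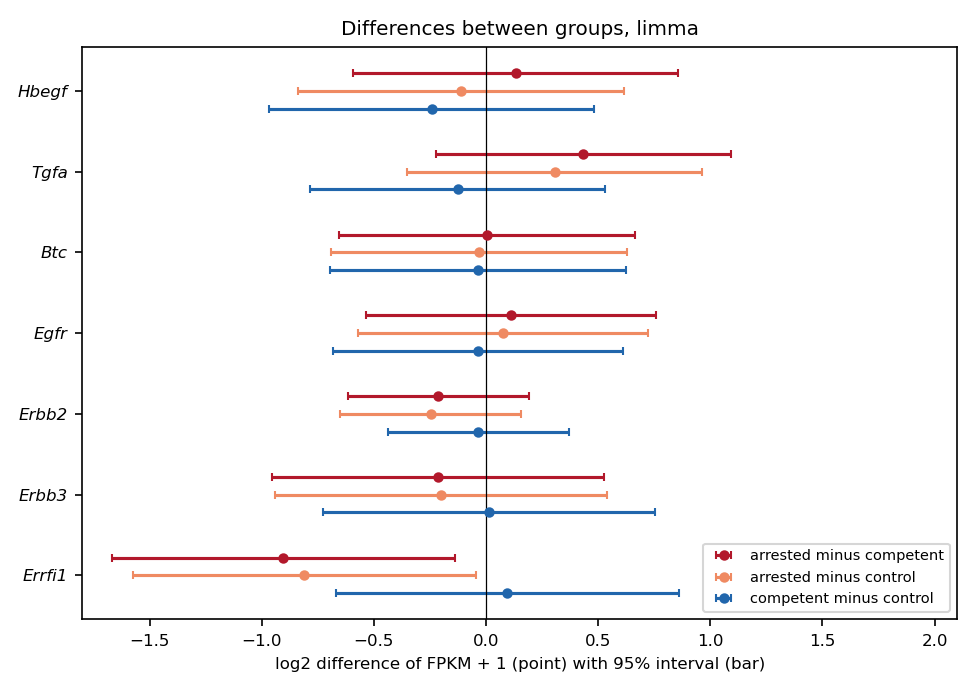
Log2 differences of FPKM + 1 (horizontal axis) of the 7 members tested, with 95% intervals from limma, for arrested minus competent, arrested minus control and competent minus control. Every interval crosses 0 except those of Errfi1 in the comparisons with the arrested group, which run from -1.67 to -0.14 against competent and from -1.57 to -0.04 against control.

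Ligands were described in order of level. Hbegf (chromosome 18, 36664583 to 36675459, minus strand, on NCBIM37) had 10.0, 4.89 and 13.2 FPKM in arrested libraries 1, 2 and 3, against 9.81, 8.53 and 5.82 in competent and 10.3, 8.21 and 10.2 in control libraries. The arrested libraries held both the lowest and the highest value, so the groups overlapped. Its arrested minus competent difference was 0.13 ± 0.32 (log2 ± SE, 95% interval -0.59 to 0.86, limma adjusted p = 0.92). Against controls the difference was -0.11 ± 0.32 in the arrested group (limma adjusted p = 0.99) and -0.24 ± 0.32 in the competent group (limma adjusted p = 0.983). The arrested libraries varied by a CV of 44.8%, where counting error at 145 to 445 reads allows 6.36%. With assembled transcripts that share a splice junction with Hbegf, arrested library 2 had 5.94 FPKM and was still the lowest of the 9.

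Tgfa, whose product is the transforming growth factor alpha of epithelia (chromosome 6, 86145420 to 86225151, plus strand), had 4.95, 3.48 and 8.17 FPKM in arrested, 4.66, 3.11 and 3.27 in competent and 3.63, 3.51 and 5.19 in control libraries. The highest value was in arrested library 3, and the other arrested values lay below the highest control value. The difference was 0.43 ± 0.29 for arrested minus competent (95% interval -0.22 to 1.09, limma adjusted p = 0.614) and 0.31 ± 0.29 for arrested minus control (limma adjusted p = 0.929). Without arrested library 3 these were 0.16 and 0.03 on the log2 scale. Competent minus control was -0.13 ± 0.29 (limma adjusted p = 0.996).

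Btc, the betacellulin gene (chromosome 5, 91786287 to 91831939, minus strand), had 3.83, 1.71 and 1.99 FPKM in arrested, 2.28, 2.98 and 1.98 in competent and 2.70, 3.09 and 1.76 in control libraries. Arrested library 1 was highest. Arrested library 2 was lowest on annotated transcripts, within counting error of control library 3 (61 and 62 reads), and stood at 2.34 FPKM with assembled transcripts that share a junction with Btc. Group means were nearly equal, at 2.51 ± 1.15, 2.41 ± 0.51 and 2.52 ± 0.69 FPKM in arrested, competent and control libraries (SD, n = 3 each), and the 95% interval of arrested minus competent ran from -0.66 to 0.66. Each value rests on 61 to 153 reads.

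Egf, the founding ligand (chromosome 3, 129380493 to 129458240, minus strand), had 0.373, 0.419 and 0.185 FPKM in arrested, 0.164, 0.337 and 0.240 in competent and 0.351, 0.298 and 0.350 in control libraries. It lay below the mean of 1 FPKM needed for testing. The values correspond to 9 to 19 reads per library, all assigned to 1 of the 3 annotated transcripts, ENSMUST00000167300 of 3340 bases. With assembled transcripts that share a junction with Egf, competent library 1 had 0.396 FPKM. At that depth counting error alone gives a CV of 27.2% in the arrested and in the control group and 28.4% in the competent group. Differences of the size seen between these groups were not detectable at this depth.

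Areg and Ereg, the amphiregulin and epiregulin genes, are neighbours of Btc on chromosome 5. Ereg runs from 91503643 to 91522675 and Areg from 91568641 to 91577458, both on the plus strand. Both were listed at 0 in 9 of 9 libraries, and no transcript was assembled over either gene in any library. A count of 0 allows up to 3 reads, which is 0.154 to 0.278 FPKM for Areg and 0.0387 to 0.0699 FPKM for Ereg depending on the library. This limit covers counting error only. The zero is a common one, since 4710 of 22245 protein-coding genes (21.2%) were listed at 0 in all 9 libraries. In these files a 0 can also be a failed estimate: Esr1, the estrogen receptor alpha gene, was at 16.7 FPKM in arrested library 2 and listed at 0 in the other 8 on its annotated transcripts, whereas with assembled transcripts it had 43.3 to 103 FPKM in all 9.

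The 250 bases before the annotated start of each gene's transcript of highest mean FPKM were read from NCBIM37 and searched on both strands for 4 motifs. They were the cAMP response element TGACGTCA, the AP-1 element TGANTCA, and the half-sites AGGTCA of the estrogen and TGTTCT of the progesterone response elements. The 3 promoters that held any of them are shown 5′ to 3′ on the gene's strand, with the motif in capitals, because they show which members share letters. They lie at chr5:91568391-91568640 on the plus strand (Areg), chr4:150228932-150229181 on the plus strand (Errfi1) and chr10:128026709-128026958 on the minus strand (Erbb3).
Areg: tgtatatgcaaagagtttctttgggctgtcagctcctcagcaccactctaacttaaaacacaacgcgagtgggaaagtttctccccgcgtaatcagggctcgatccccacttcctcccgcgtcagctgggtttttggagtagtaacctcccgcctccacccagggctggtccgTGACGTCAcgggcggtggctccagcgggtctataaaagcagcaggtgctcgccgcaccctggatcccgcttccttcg
Errfi1: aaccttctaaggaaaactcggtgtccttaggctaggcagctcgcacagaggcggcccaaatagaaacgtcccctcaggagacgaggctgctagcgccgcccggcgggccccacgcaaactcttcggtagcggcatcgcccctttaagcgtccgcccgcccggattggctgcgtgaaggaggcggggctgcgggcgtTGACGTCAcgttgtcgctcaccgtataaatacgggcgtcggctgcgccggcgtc
Erbb3: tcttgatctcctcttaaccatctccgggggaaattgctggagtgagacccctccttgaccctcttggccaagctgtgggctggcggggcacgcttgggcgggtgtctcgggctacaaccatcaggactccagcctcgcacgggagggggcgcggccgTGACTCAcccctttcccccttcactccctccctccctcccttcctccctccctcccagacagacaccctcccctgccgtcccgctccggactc
The cAMP response element began 77 bases before the start in Areg, which was listed at 0, and 54 bases before it in Errfi1, one of the most abundant members. It occurred in 2.01% of 22232 promoters of protein-coding genes. The AP-1 element began 93 bases before the start of Erbb3 and occurred in 5.98% of promoters. Neither half-site was found in a member, while AGGTCA occurred in 12.27% and TGTTCT in 14.04% of promoters. These are matches of letters and were not tested as sites.

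Among the receptors, Erbb2 was the most abundant. Erbb2 (chromosome 11, 98273784 to 98299030, plus strand) had 29.8, 29.8 and 33.0 FPKM in arrested, 40.8, 32.9 and 34.4 in competent and 30.3, 35.1 and 46.8 in control libraries. The arrested libraries lay close together at the low end, and control library 1 and competent library 2 lay within their range. The difference was -0.21 ± 0.18 for arrested minus competent (95% interval -0.62 to 0.19, limma adjusted p = 0.707), -0.25 ± 0.18 for arrested minus control (limma adjusted p = 0.905) and -0.03 ± 0.18 for competent minus control (limma adjusted p = 0.998). Its reads were divided between 2 annotated transcripts. ENSMUST00000058295 held 50.1 ± 10.6% of the gene's FPKM in arrested, 53.9 ± 11.5% in competent and 49.0 ± 5.89% in control libraries (SD, n = 3 each), so the split differed between groups by less than the spread between libraries.

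Erbb3 (chromosome 10, 128004579 to 128026708, minus strand) had 13.5, 20.4 and 32.7 FPKM in arrested, 30.9, 24.7 and 18.9 in competent and 21.9, 19.6 and 32.6 in control libraries. The arrested libraries spanned the whole range of the 9. Transcripts that Cufflinks assembled and that share a splice junction with Erbb3 added FPKM in 4 libraries, and with them the values were 21.6, 23.1 and 32.7 in arrested, 30.9, 24.7 and 23.7 in competent and 21.9, 21.7 and 32.6 in control libraries. The arrested minus control difference was -0.20 ± 0.33 on annotated transcripts (limma adjusted p = 0.959) and 0.02 with the FPKM of the assembled ones. With the reads of assembled transcripts set on the length of the gene instead, it was -0.07, and arrested library 1 had 17.9 FPKM, still the lowest. The arrested minus competent difference on annotated transcripts was -0.21 ± 0.33 (limma adjusted p = 0.863).

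Egfr (chromosome 11, 16652206 to 16818161, plus strand) had 3.81, 7.59 and 2.81 FPKM in arrested, 3.95, 3.88 and 4.16 in competent and 4.31, 4.36 and 3.71 in control libraries. Arrested library 2 held the highest and arrested library 3 the lowest value. Arrested library 3 was at 4.24 FPKM once the FPKM of assembled transcripts were added. With the reads of those transcripts set on the length of the gene instead, it was at 3.46 FPKM, still the lowest. The competent libraries differed by no more than counting error, with a CV of 3.72% where 3.81% is due to counting. In arrested library 2, 3.31 FPKM came from the shorter transcript ENSMUST00000020325, which was listed at 0 in the other 8 libraries, and the longer ENSMUST00000020329 gave 4.28 FPKM there. The difference was 0.11 ± 0.29 for arrested minus competent (limma adjusted p = 0.923) and 0.08 ± 0.29 for arrested minus control (limma adjusted p = 0.991). With the FPKM of assembled transcripts added it was 0.27 for arrested minus competent and 0.23 for arrested minus control. With their reads set on the length of the gene it was 0.19 and 0.11, and on the longer transcript alone it was -0.12 and -0.16. The direction of Egfr therefore changed with the transcripts counted. The same library had the highest adipocyte score of the 9, at 3.86, a stromal score of 0.65 and an epithelial score of -0.37 (mean log2 of the list relative to all 9 libraries), and their part in the Egfr value was not tested. In bulk tissue, fewer cells of a type and less RNA per cell cannot be told apart. The plot of receptor FPKM by transcript shows how each library's value was made up.

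**Figure D3:**
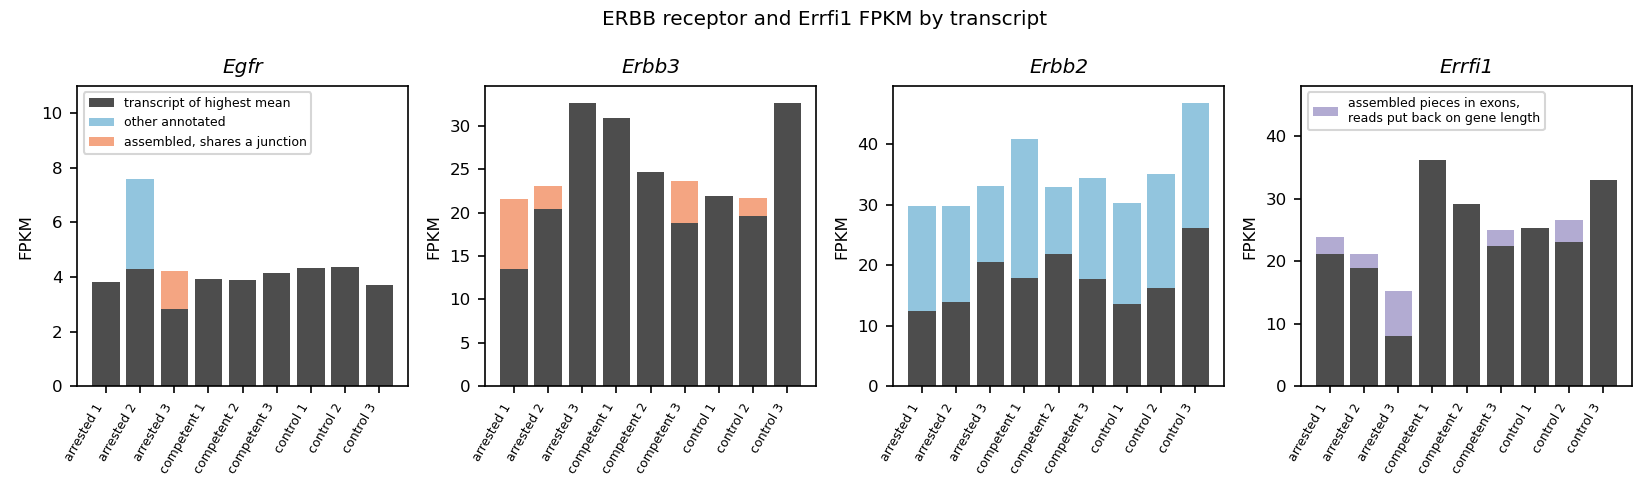
FPKM (vertical axes) of Egfr, Erbb3, Erbb2 and Errfi1 in each of the 9 libraries, stacked by source: the annotated transcript of highest mean, the other annotated transcripts, and assembled transcripts that share a splice junction with the gene; for Errfi1 the upper part holds the reads of assembled pieces within its exons, set on the length of the gene. The second Egfr transcript appears in arrested library 2 alone, at 3.31 FPKM, and assembled transcripts raise Erbb3 in arrested library 1 to 21.6 FPKM. The Errfi1 pieces lie in 5 libraries, and with them arrested library 3 reaches 15.3 FPKM.

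On annotated transcripts, Errfi1 was the member whose arrested libraries overlapped neither of the other groups. Errfi1 (chromosome 4, 150228028 to 150243001, plus strand) had 21.1, 19.0 and 8.04 FPKM in arrested, 36.2, 29.1 and 22.4 in competent and 25.2, 23.1 and 33.0 in control libraries. The highest arrested value lay below the lowest value of each other group. Group means were 16.04 ± 7.01 FPKM in arrested, 29.2 ± 6.94 in competent and 27.1 ± 5.19 in control libraries (SD, n = 3 each). The difference was -0.90 ± 0.34 for arrested minus competent (95% interval -1.67 to -0.14, limma adjusted p = 0.36) and -0.81 ± 0.34 for arrested minus control (limma adjusted p = 0.89), and neither passed. Competent minus control was 0.10 ± 0.34 (limma adjusted p = 0.997), with overlapping libraries. Of the annotated transcripts 1 held all of this FPKM, on 355 to 2027 reads per library. Cufflinks had also assembled separate single-exon pieces within the exons of the gene, whose reads are outside this FPKM. A piece over exon 1 was present in the 3 arrested libraries, with about 117, 87.0 and 84.8 reads in libraries 1, 2 and 3, in competent library 3 with 111 and in control library 2 with 147. Arrested library 3 had a further piece in the last exon, with about 235 reads. These 5 libraries are those with the lowest annotated values of the 9. With the reads of the pieces set on the length of the gene, Errfi1 had 23.8, 21.2 and 15.3 FPKM in arrested, 36.2, 29.1 and 25.03 in competent and 25.2, 26.6 and 33.0 in control libraries. The arrested libraries still lay below the others, by a narrower margin. The difference was then -0.57 ± 0.20 for arrested minus competent (limma adjusted p = 0.274) and -0.48 ± 0.20 for arrested minus control (limma adjusted p = 0.795).

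Arrested library 3 weighed on the size of the Errfi1 difference on annotated transcripts. Without it, arrested minus competent was -0.50 (limma adjusted p = 0.406) and arrested minus control -0.40 (limma adjusted p = 0.825), and neither had an unadjusted p under 0.05. The unadjusted p for arrested minus competent was also over 0.05 without competent library 1 or 2. For arrested minus control it was over 0.05 without control library 1 or 3, without competent library 2, with no low filter and from only the 6 libraries compared. Arrested library 3 is the one that stood apart on the leading component. It alone had FPKM on the annotated transcripts of Ovgp1. The part of either in the Errfi1 value was not tested.

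The members did not all vary together. Arrested library 3 had the highest Hbegf and Tgfa of the 9 libraries and the lowest Errfi1 and Egfr on annotated transcripts, and arrested library 2 had the lowest Hbegf and the highest Egfr. As a description over 9 libraries, Pearson's r of log2(FPKM + 1) was 0.725 for Hbegf with Tgfa, 0.657 for Erbb2 with Erbb3 and -0.836 for Hbegf with Egfr. These values share libraries and lean on the arrested ones. They were computed on annotated transcripts. There the Egfr value of arrested library 2 includes 3.31 FPKM of the shorter transcript. That of arrested library 3 rises from 2.81 to 4.24 FPKM with assembled transcripts. The heat map of members by library places them beside the marker lists. Smooth muscle was also uneven in the arrested group, with summed FPKM of its 10 markers of 887, 2189 and 1225 in arrested libraries 1, 2 and 3, 1436 to 2805 in competent and 1639 to 1736 in control libraries.

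**Figure D4:**
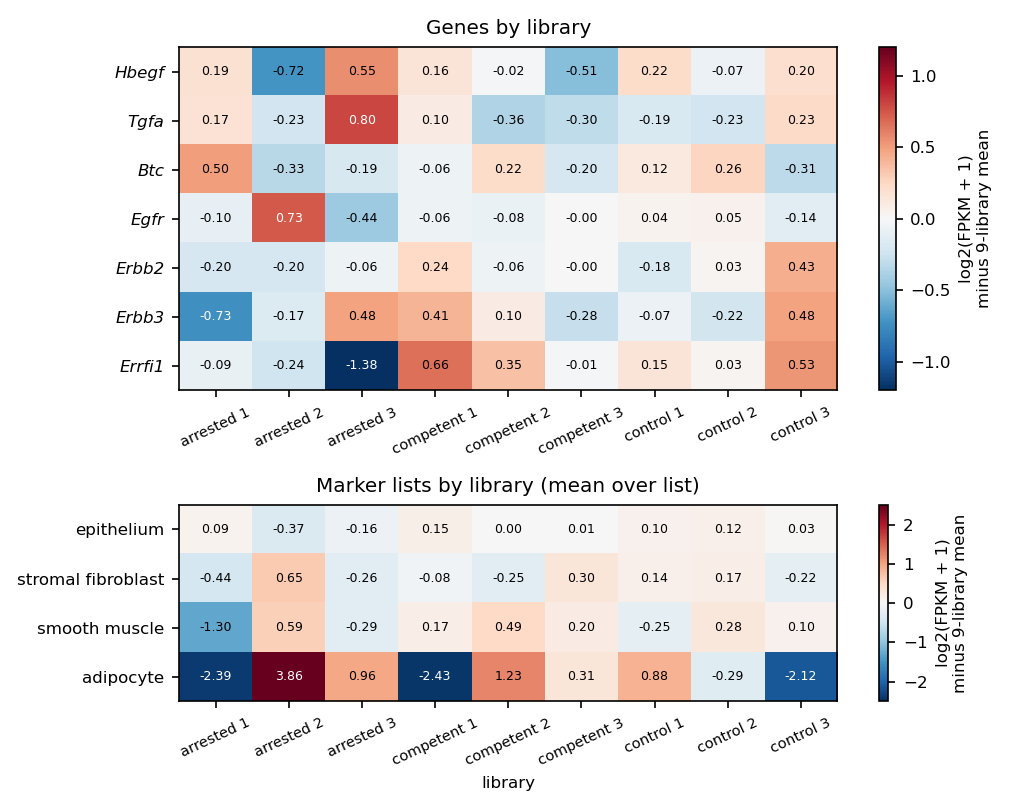
Upper panel: log2(FPKM + 1) minus the 9-library mean for the 7 members tested (rows) in each library (columns). Lower panel: the same quantity averaged over 4 marker lists, on a wider colour scale. Colours are saturated beyond the ends of each scale, and the numbers are in the cells; the lowest member value is -1.38, Errfi1 in arrested library 3, and the highest list value is 3.86, adipocyte in arrested library 2.

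The genes whose pattern was most like each member's were found among the 7137 tested genes that averaged 5 FPKM or more, as the highest Pearson r over the 9 libraries. For Hbegf they were Gclc (r = 0.93), Ivns1abp (0.91) and Prpf39 (0.90). For Tgfa they were Ctsb, Fam174b and Kcne3 (0.97, 0.97 and 0.96), and for Btc they were Ppcs, Tm2d2 and Rer1 (0.96, 0.94 and 0.94). Egfr was matched by Bmi1, Pkia and Ghr (0.97, 0.94 and 0.94), Erbb2 by Phldb1, Eif3d and Eif2b2 (0.96, 0.95 and 0.93) and Erbb3 by Zc3h15, Ddx54 and Sec63 (0.94, 0.92 and 0.92). For Errfi1 they included Rab43 and Gatc (0.95 each). Each r is a selected maximum over 9 points on annotated transcripts and is given as a description.

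Genes that act before, with and after the receptors were read from 7 lists. On annotated transcripts, 0 members of any list were called in any comparison by limma. The lists were not read from the fit with assembled transcripts. Of the 6 other ligand and receptor genes of the family, 0 reached the test on annotated transcripts. Among them Nrg4, a neuregulin that binds ERBB4, was at 7.30 FPKM in arrested library 1 and 5.29 in control library 2, and listed at 0 in the other 7 libraries. Erbb4, the fourth receptor gene, was at 1.05, 0.330 and 0.415 FPKM in arrested, 0, 0 and 0.458 in competent and 0.306, 0.690 and 0.932 in control libraries. With assembled transcripts Erbb4 had 1.05, 1.03 and 3.96 FPKM in arrested libraries. It then had 0.536, 1.19 and 0.721 in competent and 0.879, 0.827 and 0.932 in control libraries. Counted in that way, the neuregulin genes Nrg1 and Nrg2 ranged from 0 to 4.22 and from 1.15 to 8.95 FPKM. Of the genes for ligand release and trafficking, 7 of 9 were tested. Rhbdl2, of that list, was picked out after its values were seen. On annotated transcripts it differed by 0.11 ± 0.49 for arrested minus competent (limma adjusted p = 0.961). With assembled transcripts Rhbdl2 had 6.09, 5.73 and 5.87 FPKM in arrested libraries. The values were then 11.3, 15.5 and 16.2 in competent and 11.9, 11.4 and 12.3 in control libraries. Adam10, a sheddase of Btc and Egf precursors, averaged 31.6 ± 4.64 FPKM in arrested, 38.9 ± 2.92 in competent and 33.6 ± 1.54 in control libraries (SD, n = 3 each), with an arrested minus competent difference of -0.30 ± 0.15 (limma adjusted p = 0.478). Cnih, a cargo receptor for the export of growth factor precursors, averaged 44.8 ± 5.15 FPKM in arrested, 52.1 ± 5.28 in competent and 45.6 ± 4.96 in control libraries. All 15 receptor adaptors and kinases were tested, and their highest members by level, the adaptor genes Shc1 and Grb2, ranged from 49.4 to 212 and from 28.4 to 86.9 FPKM over the 9 libraries. Among RAS, RAF, MAPK and AKT genes 15 of 16 were tested, and Mapk3, which encodes the kinase ERK1, had 67.9, 103 and 71.8 FPKM in arrested, 102, 72.0 and 92.9 in competent and 103, 66.7 and 240 in control libraries, so that control library 3 stood far above the rest. Araf, a RAF kinase gene, averaged 70.7 ± 33.1 FPKM in arrested, 69.5 ± 20.0 in competent and 63.6 ± 31.9 in control libraries. The median log2 difference for arrested minus competent was -0.12 in the release and trafficking list, -0.13 in the adaptor list and -0.074 in the RAS, RAF, MAPK and AKT list.

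Feedback inhibitors other than Errfi1 were read closely because Errfi1 is one of that class. Of 19, 14 were tested, with a median log2 difference of -0.014 for arrested minus competent, where 7 were above and 7 below 0, and of -0.17 for arrested minus control, where 5 were above and 9 below. At an unadjusted p under 0.05, limma had 3 of 14 for arrested minus competent, where the share of all genes tested was 11.7%, and 2 of 14 for arrested minus control, where it was 5.44%. Lrig1, a membrane protein that promotes the loss of ERBB receptors, had 28.4, 44.5 and 24.5 FPKM in arrested, 55.3, 66.9 and 57.8 in competent and 54.1, 62.3 and 46.9 in control libraries. The arrested libraries did not overlap either group. Its difference was -0.91 ± 0.22 for arrested minus competent (limma adjusted p = 0.205) and -0.76 ± 0.22 for arrested minus control (limma adjusted p = 0.867), and neither passed. Cblc, an ubiquitin ligase gene of the receptors, averaged 42.6 ± 8.22, 47.0 ± 17.7 and 50.6 ± 20.1 FPKM in arrested, competent and control libraries. The other 2 with an unadjusted p under 0.05, Dusp6 and Spry2, were picked out after their values were seen. Dusp6, an ERK phosphatase gene, had 14.1, 17.1 and 20.6 FPKM in arrested, against 23.6, 28.4 and 21.9 in competent and 20.3, 21.7 and 22.1 in control libraries, a difference of -0.50 ± 0.17 for arrested minus competent (limma adjusted p = 0.346). Spry2, an inhibitor of receptor to RAS signalling, had 12.6, 15.6 and 15.99 FPKM in arrested, against 17.6, 21.6 and 21.3 in competent and 20.0, 19.4 and 19.3 in control libraries, a difference of -0.43 ± 0.15 for arrested minus competent (limma adjusted p = 0.353). The plot of feedback inhibitors shows Lrig1 and Errfi1, on annotated transcripts, at like distances below 0 in both comparisons with the arrested group. With the reads of assembled pieces added back, Errfi1 moved to -0.57 for arrested minus competent, while the FPKM of Lrig1 did not change.

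**Figure D5:**
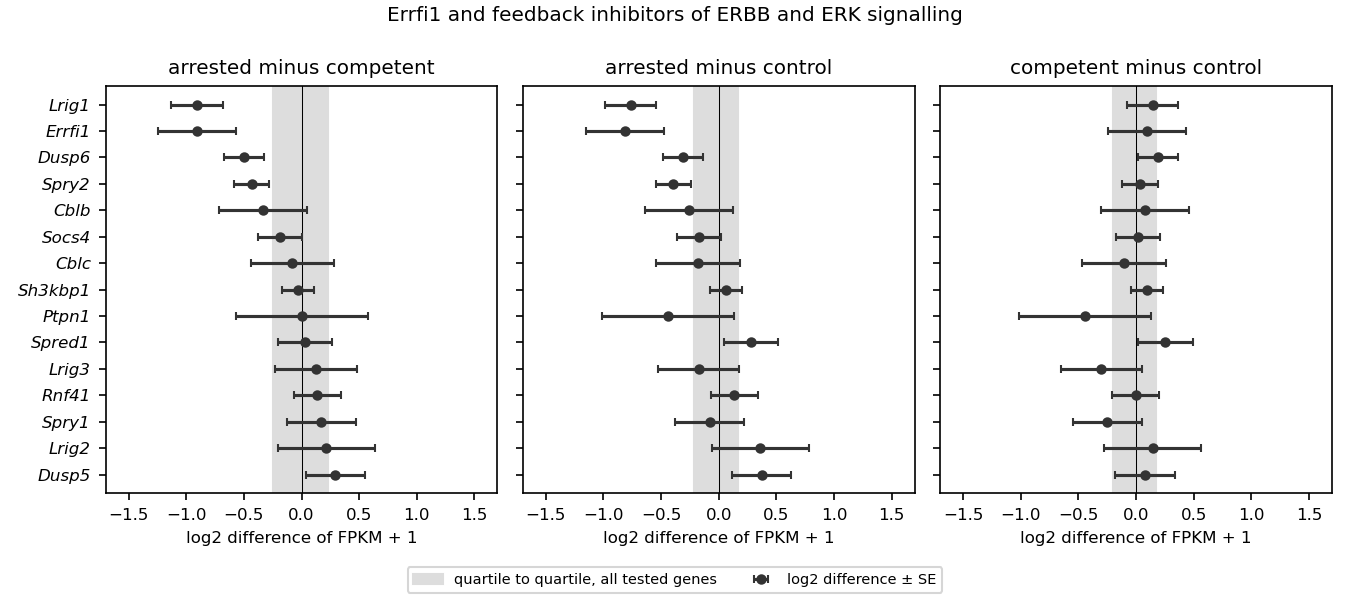
Log2 differences of FPKM + 1 (points, horizontal axes) ± SE from limma for Errfi1 and the 14 tested feedback inhibitors, in 3 comparisons; the grey band runs from the lower to the upper quartile of the 12039 genes tested. On annotated transcripts, Lrig1 lies at -0.91 and Errfi1 at -0.90 for arrested minus competent, outside the band of -0.244 to 0.232, and none of the 15 genes was called.

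Early genes that ERK signalling induces were read as a further list, and their link to receptor activity in these libraries was not tested. Of 18, 15 were tested, with a median log2 difference of 0.16 for arrested minus competent, -0.12 for competent minus control and -0.02 for arrested minus control. At an unadjusted p under 0.05, limma had 1 of 15 for arrested minus competent (11.7% of all genes). It had 0 for competent minus control (5.52%) and 0 for arrested minus control (5.44%). Libraries did not overlap for 3 of 15 in arrested minus competent (17.2% of all genes). The counts were 2 in competent minus control (15.4%) and 1 in arrested minus control (9.13%). Ier3, an immediate early gene, had 42.5, 35.6 and 114.5 FPKM in arrested, 47.2, 58.3 and 45.6 in competent and 51.8, 49.0 and 36.2 in control libraries, so that the highest value lay in arrested library 3 and the other 2 arrested values lay below every competent value. Junb, an AP-1 subunit gene, averaged 44.0 ± 3.10 FPKM in arrested, 39.2 ± 4.71 in competent and 46.7 ± 2.06 in control libraries (SD, n = 3 each). Junb differed by 0.17 ± 0.14 for arrested minus competent (limma adjusted p = 0.699). Pgr, the progesterone receptor gene, was listed at 0 in 6 of 9 libraries on annotated transcripts and was not tested. With assembled transcripts it had 40.1, 48.5 and 28.8 FPKM in arrested, 31.5, 30.1 and 36.6 in competent and 26.5, 43.8 and 31.9 in control libraries, which overlap.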

How the data were processed

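RNA from whole uterus was sequenced in 9 libraries (3 arrested, 3 competent, 3 control), each prepared with a TruSeq kit from 1 µg of total RNA, per the labels' protocols. The submitters' processing notes name Bowtie 0.12.2, Cufflinks and the genome build mm9. No version or options of Cufflinks are stated there. The deposited values used were FPKM per transcript with confidence intervals. The deposited coverage signal is a constant multiple of FPKM within a library, so the alternative called coverage was computed from FPKM. Each transcript's FPKM was multiplied by its length, summed per gene, divided by the gene's exon length and scaled to equal library totals. Annotated transcripts were matched to GENCODE vM1 on NCBIM37. To obtain a gene's value, the FPKM of all its annotated transcripts were added up. FPKM are not counts, so no count model was used.

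Genes were tested with limma 3.58.1 in R 4.3.3 on log2(FPKM + 1), a scale that understates the change of low genes, with group means fitted to all 9 libraries at once, a mean trend and Benjamini-Hochberg adjustment at 0.05 over 12039 genes. These were the 13333 genes that averaged 1 FPKM or more, less 1294 listed at 0 in 1 to 8 libraries while the others averaged over 5 FPKM. Reads were estimated with Python 3.11.15, pandas 2.3.3 and numpy 2.4.6 from loci of 1 transcript. There the interval's half-width was read as 2 SD of a Poisson count, and 96.6% or more of the loci used lay within 2% of the fitted relation to length. The estimates cover counting error only. The fit was tested on simulated data. Named genes were the members, called genes and the 2 highest-mean genes of each list, and likeness was the 3 highest r; the values of 2 genes that this rule names are not reported here. Members and gene lists were chosen with earlier results of these data known. Sensitivity to pseudocount, filters, transcripts counted, scaling, the fit, replicate number and each library was computed. An alternative chosen after seeing the data added back the reads of assembled transcripts that share a junction with 1 gene or have over 0.5 of their bases in its exons, on the effective length of its transcript of highest mean FPKM. Proteins were not analysed here.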

Additional observations from a re-analysis of the deposited data

How the results depend on the processing

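Over 23 alternative settings, 0 members were called in any comparison, and of 474 values of single members 438 kept their direction and their side of the threshold. The other 36 reversed, all of them differences of at most 0.2143 on the log2 scale to begin with. Many of the 474 could not reverse. The filters, the rules for failed estimates, the mean trend and the replicate block leave a difference of group means unchanged. So do the fit of only the 6 libraries compared and leaving out a library of the third group. Under those settings only the SE and p could move. Btc, arrested minus competent, became -0.012 with a pseudocount of 0.1 and -0.025 from coverage, and arrested minus control became 0.069 with assembled transcripts and 0.033 with the reads of assembled pieces added back, a setting chosen after seeing the data. Egfr became -0.12 on its highest transcript and -0.086 from coverage for arrested minus competent, and -0.16 and -0.12 for arrested minus control. Erbb2, competent minus control, became 0.082 on its highest transcript, and Erbb3, arrested minus control, 0.023 with assembled transcripts. The cause was not tested.

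Leaving out each library in turn gave -0.14 to 0.49 for Hbegf, -0.25 to 0.17 for Btc, -0.22 to 0.36 for Egfr and -0.53 to 0.083 for Erbb3 in arrested minus competent. In arrested minus control it gave -0.38 to 0.25 for Hbegf, -0.29 to 0.13 for Btc, -0.26 to 0.33 for Egfr and -0.51 to 0.096 for Erbb3. In competent minus control it gave -0.20 to 0.085 for Btc, -0.27 to 0.019 for Tgfa, -0.17 to 0.13 for Erbb2, -0.15 to 0.22 for Erbb3 and -0.068 to 0.27 for Errfi1. Errfi1 stayed between -1.15 and -0.50 for arrested minus competent, with limma adjusted p of 0.266 to 0.65 over all settings, and between -1.05 and -0.40 for arrested minus control, with limma adjusted p of 0.541 to 1.

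Counts over all genes moved with the settings. With so few genes called, a count out of 7 members had little room to leave 0, so the stability of the counts was not compared. For arrested minus competent 11 genes were called, against 6 with no low filter, 18 with failed estimates kept, 22 with them left out by group, 31 with assembled transcripts, 38 with assembled pieces added back, 28 from coverage, 4 with no mean trend, 0 from only the 6 libraries compared and 0 to 38 leaving out a library. It was 0 without competent library 2 or 3 and 38 without arrested library 2. For competent minus control 3 were called, against 7 with no low filter, 6 with failed estimates kept, 8 with them left out by group, 1 with assembled transcripts, 1 from coverage and 0 to 5 leaving out a library. For arrested minus control 1 was called, against 4, 7 and 7 under the first 3 of these settings, 0 on the highest transcript, 0 with no mean trend, 0 from only the 6 libraries compared and 0 to 5 leaving out a library. The F test called 6 genes, against 13 with failed estimates kept, 18 with them left out by group, 12 with assembled pieces added back, 2 on the highest transcript, 3 with no mean trend and 0 to 13 leaving out a library. With the replicate number as a block, 0 genes were called in each comparison and in the F test. Deviations of same-numbered libraries from their group means correlated at r = -0.069 to 0.18, and the main fit did not treat the number as a pairing. Such correlations cannot show whether these libraries share an animal, a medium pool or a batch, which the labels do not state. Depth limits Egf, Areg and Ereg, at 0 to 19 reads.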
